A study of Homo sapiens with 6 samples.

Results

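Mitochondrial ribosomal proteins are the proteins of the ribosome that works inside mitochondria, and their genes carry symbols that begin with MRPL for the large subunit and MRPS for the small subunit. The members described here are the genes of the deposited table whose symbol consists of MRPL or MRPS, a number and at most 1 letter from A to C, with MRPS6 left out. This rule found 77 of 60605 genes and was checked against the gene annotation in the same table. It uses no measured value, but it was set with earlier results of these data known, and why MRPS6 was left out is not given. A term for the mitochondrial ribosome was listed for 75 of the 77, all but MRPS23 and MRPS25, and every member was annotated to the mitochondrion. By the universal naming of ribosomal proteins, 51 members belong to the large subunit and 25 to the small subunit. MRPS30 and MRPS18A count among the 51 despite their symbols. MRPS36 was assigned to neither subunit, since its protein is described as part of the 2-oxoglutarate dehydrogenase complex.

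The mitochondrial ribosome translates the few mRNAs of mitochondrial DNA, which encode core subunits of the respiratory chain and of ATP synthase. Its rRNAs come from mitochondrial DNA, while all of its proteins are encoded in the nucleus, made in the cytosol and imported. Some of these proteins have a direct counterpart in the bacterial ribosome, and others occupy places found only in mitochondrial ribosomes. PUS1 is an enzyme that converts uridine to pseudouridine in RNA, in tRNAs of the cytosol and of mitochondria among others, and inherited loss of the human gene causes a mitochondrial myopathy with sideroblastic anemia.

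The libraries came from MDA-MB-231, a line of triple-negative breast cancer cells, grown in RPMI medium with fetal bovine serum. The 3 shControl libraries carry a control hairpin and the 3 shPUS1 libraries a hairpin against PUS1. The study's methods describe pLKO.1 lentiviral vectors and puromycin selection, and the text does not name the hairpin of the sequenced cells. The labels call the replicates biological without saying whether they came from separate infections, so p-values measure the spread between these libraries, which may be technical.

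Library totals were 14241505 to 19625998 estimated counts. PUS1 itself had FPKM (counts scaled to exonic length and library total) of 1.13, 0.95 and 0.93 in shPUS1 and 2.57, 4.66 and 2.18 in shControl, with no overlap. Its log2 fold change was -1.64 (SE, standard error, 0.32) with 6 libraries (adjusted p = 0.0462 by the quasi-likelihood method of edgeR) and -1.20 (adjusted p = 0.00311) without shControl replicate 2. The markers VIM, CD44, EGFR, AXL and CAV1 were at 19.3 FPKM or more in every library, and ESR1, PGR, CDH1, PTPRC, HBB and ALB were at 0.18 FPKM or less, whereas EPCAM was at 2.21 to 3.12 FPKM. Across genes, shControl replicate 2 stood apart, with r of log2 CPM of 0.951 and 0.952 to the other shControl libraries, where these had 0.981 with each other and shPUS1 pairs had at least 0.987. The main counts and medians are therefore given with all 6 libraries and with the 5 libraries that remain without shControl replicate 2. Some subgroups, gene pairs and single genes are given with 5 libraries only, and edgeR called no member with 6.

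The promoters of the members shared short sequence motifs, and those of genes that were lower in shPUS1 in the fit to 5 libraries described further on are shown first. RefSeq (GRCh38.p14) gave a window of 250 bases before and 50 bases after the gene start for 68 of the 77 members. The core of ETS-family factors such as GABP, CCGGAAG on either strand, was present in 29 of the 68 windows (42.6%), in 19.4% of the 10633 windows of tested genes and in 10.7% of all 27305 windows. In these 5 lower members the core lay wholly within the 150 bases before the start, and capitals mark it.
MRPL27 chr17:50373185-50373334 minus strand: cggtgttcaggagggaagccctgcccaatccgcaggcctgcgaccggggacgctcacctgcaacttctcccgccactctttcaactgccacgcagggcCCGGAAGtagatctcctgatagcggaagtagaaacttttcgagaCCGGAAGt
MRPL30 chr2:99181034-99181183 plus strand: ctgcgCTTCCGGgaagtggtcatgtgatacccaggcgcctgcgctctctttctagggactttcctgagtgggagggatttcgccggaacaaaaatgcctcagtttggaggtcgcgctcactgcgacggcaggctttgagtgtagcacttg
MRPL48 chr11:73787724-73787873 plus strand: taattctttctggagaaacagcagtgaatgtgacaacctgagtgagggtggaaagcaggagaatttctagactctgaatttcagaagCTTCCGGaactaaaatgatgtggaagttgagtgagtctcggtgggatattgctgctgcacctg
MRPL54 chr19:3762532-3762681 plus strand: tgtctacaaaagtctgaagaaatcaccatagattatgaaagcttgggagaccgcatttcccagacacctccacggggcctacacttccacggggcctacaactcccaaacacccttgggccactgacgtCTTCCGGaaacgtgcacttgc
MRPS26 chr20:3045902-3046051 plus strand: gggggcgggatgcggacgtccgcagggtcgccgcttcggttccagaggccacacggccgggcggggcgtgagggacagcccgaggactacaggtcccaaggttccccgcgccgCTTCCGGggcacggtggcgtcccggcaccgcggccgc

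A core of the factor YY1, AAGATGGC on either strand, was present in 20 of the 68 windows (29.4%), in 5.39% of the windows of tested genes and in 3.03% of all windows. Of its 21 matches in members, 15 began after the gene start, at a median of 15 bases from it. The first 30 bases from the start are shown for MRPL42 and MRPS27, which were lower in shPUS1 with 5 libraries, and for MRPS24, which was higher, with the core in capitals.
MRPL42 chr12:93467514-93467543 plus strand: attgaaacAAGATGGCgggttcgtggtgag
MRPS27 chr5:72320211-72320240 minus strand: ccttttggtacgctccAAGATGGCtgcctc
MRPS24 chr7:43869488-43869517 minus strand: cccgcgctccgcttggcccAAGATGGCggc

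A core of the factor NRF1, GCGCATGC on either strand, was present in 6 of the 68 windows (8.82%), in 5.38% of the windows of tested genes and in 3.27% of all windows. MRPS18B, which was lower in shPUS1 with 5 libraries, holds it 23 bases before its start. Both MRPS18B and MRPS24 hold the YY1 core after the start, 23 bases from it in MRPS18B and 19 in MRPS24. The 150 bases before the start are shown for both, and in MRPS24 these held none of the motifs searched.
MRPS18B chr6:30617690-30617839 plus strand: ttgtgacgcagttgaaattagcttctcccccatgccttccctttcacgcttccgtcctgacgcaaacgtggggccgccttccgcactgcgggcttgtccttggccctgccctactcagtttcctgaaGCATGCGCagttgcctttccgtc
MRPS24 chr7:43869518-43869667 minus strand: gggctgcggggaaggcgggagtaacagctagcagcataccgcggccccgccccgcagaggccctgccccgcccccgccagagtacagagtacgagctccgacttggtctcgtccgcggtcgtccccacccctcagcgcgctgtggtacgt

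The TATA box letters TATAAA on either strand were in 2 of the 68 windows (2.94%), in 5.73% of the windows of tested genes and in 12% of all windows. Among the 14 members with a window that were lower with 5 libraries, 8 held the ETS-family core, 3 the YY1 core and 1 the NRF1 core. Among the other 54 the numbers were 21, 17 and 5. The motifs were thus present on both sides of the call, and no test of the difference was made. These are matches of letters, and binding of the factors was not measured.

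The members as a whole took a smaller share of the counts in shPUS1 on average. They held 0.298%, 0.292% and 0.326% of the counts in shPUS1 replicates 1, 2 and 3, and 0.371%, 0.448% and 0.333% in shControl replicates 1, 2 and 3. After scaling by TMM (trimmed mean of M values), the members were summed in CPM (counts scaled to the library total). The sum was 3081 ± 185 CPM for the shPUS1 group and 3826 ± 707 CPM for the shControl group, mean ± SD over 3 libraries. In shControl it was 3641, 4608 and 3231 CPM for replicates 1, 2 and 3, so replicate 2 raised the mean. The groups overlapped, since shPUS1 replicate 3 was at 3289, above shControl replicate 3. Bulk RNA gives shares of a library, so fewer cells with these transcripts and less of them in each cell cannot be told apart. The median log2 fold change of the 77 members, shPUS1 relative to shControl, was -0.37 with 6 libraries and -0.18 with 5. Over all genes tested it was -0.03 and -0.02. A negative fold change was fitted for 71 of 77 members (92.2%) with 6 libraries and for 63 (81.8%) with 5, where 52.7% and 52.1% of all genes tested had one. The negative values were thus spread over most members, as the plot of deviations by library shows.

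**Figure D1:**
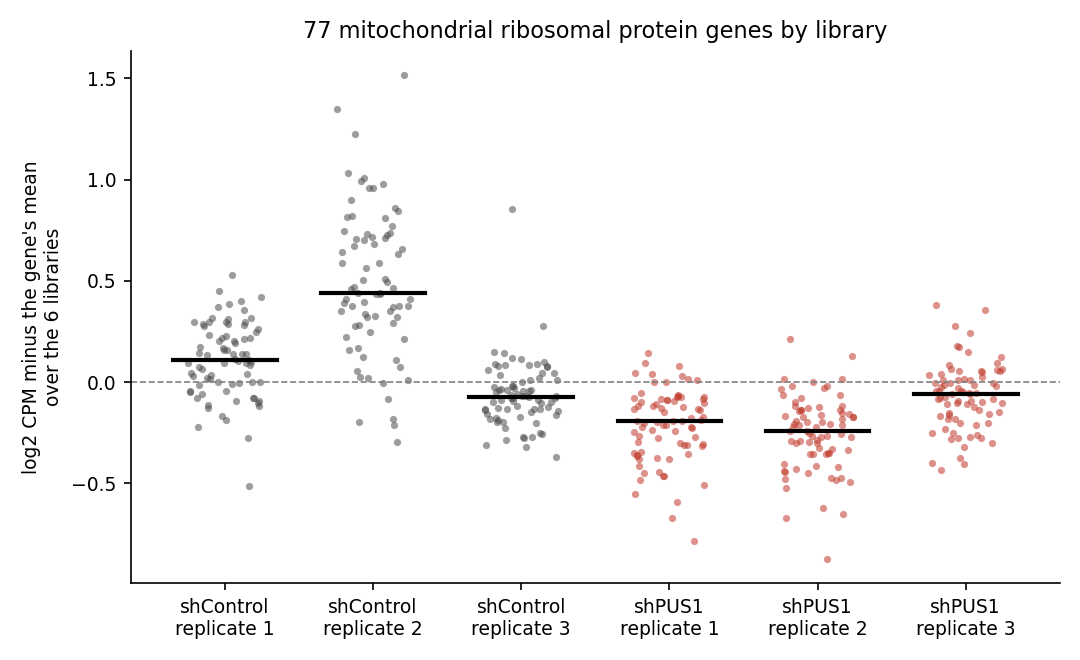
Each point is 1 of the 77 members, placed by its log2 CPM minus its own mean over the 6 libraries, for each shControl (grey) and shPUS1 (red) library, and the black line is the median. The medians were 0.11, 0.44 and -0.07 in shControl and -0.19, -0.24 and -0.06 in shPUS1, so shControl replicate 2 lay highest and the replicates numbered 3 lay close together.

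The library that stood apart across all genes also held the highest levels of most members. In shControl replicate 2, 67 of the 77 members were above the mean of shControl replicates 1 and 3, by a median of 0.44 on the log2 scale, where the median over all genes tested was 0.02. The 4 members that differed most were MRPL20 at 1.58, MRPL1 at 1.45, MRPS17 at 1.08 and MRPS11 at 1.04 (log2 differences). MRPL20, a protein of the large subunit with a bacterial counterpart, had 13.65 FPKM in that library against 4.79 and 4.75 in the other shControl libraries and 3.87, 4.0 and 5.64 in shPUS1. Its log2 fold change went from -0.78 (adjusted p = 0.297 from edgeR) with 6 libraries to -0.04 (adjusted p = 0.887) with 5. MRPS11, a small-subunit protein with a bacterial counterpart, went from -0.43 to 0.00 and MRPS17, another, from -0.56 to -0.10, with adjusted p of at least 0.325 in both fits. What sets shControl replicate 2 apart was not tested.

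With all 6 libraries, edgeR's quasi-likelihood test with Benjamini-Hochberg adjustment over the 14748 genes tested called 0 members higher and 0 members lower at an adjusted p under 0.05, where 1.74% and 0.841% of all genes tested were called. All 77 members passed the filter on low counts. The smallest adjusted p was 0.0535, that of MRPS18B. At an unadjusted p under 0.05 the same test gave 1 higher member, MRPS24, and 27 lower members (35.1%), where 12.6% and 12.8% of all genes tested were higher and lower. DESeq2 called 1 member higher and 15 lower (19.5%), where 6.96% and 5.31% of all genes with an adjusted p were called. The voom method with sample weights, which weights shControl replicate 2 at 0.101 and the other libraries at 0.715 to 4.08, called 1 higher and 21 lower (27.3%), where 11.5% and 9.48% of all genes tested were called. In 28 members (36.4%) all shPUS1 libraries were below all shControl libraries in log2 CPM, and in 1 member, MRPS24, all were above. Over all genes tested 17.3% were lower without overlap and 18.8% higher. Under each of these rules but the first, lower members made up a larger share than lower genes did in the table.

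**Figure D2:**
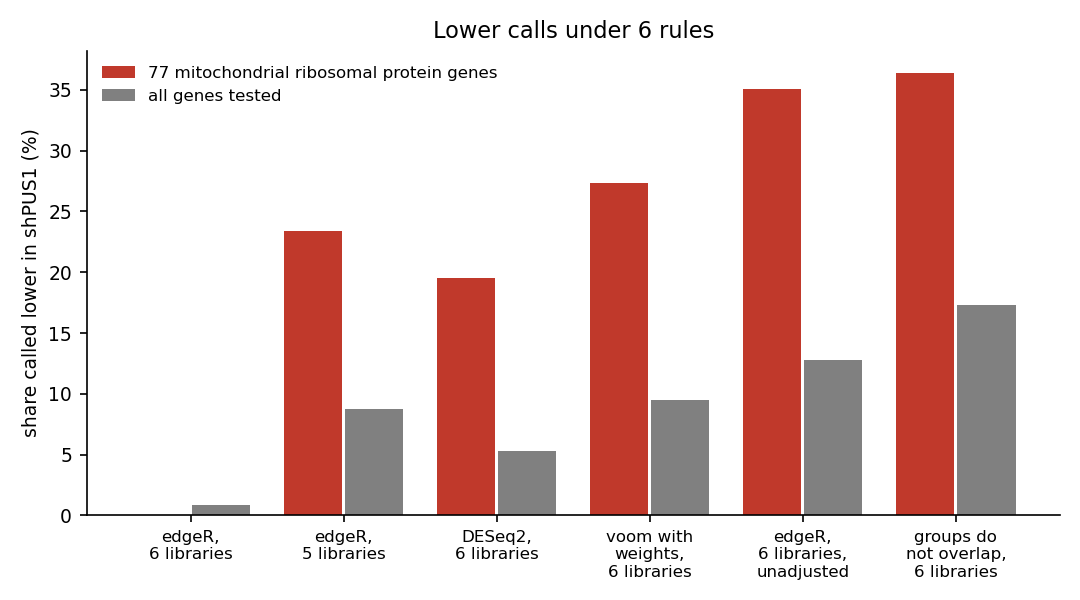
Bars give the percentage called lower in shPUS1 among the 77 members (red) and among all genes tested (grey) under 6 rules, from the edgeR test of 6 libraries to groups without overlap. The members' bar is at 0 for edgeR with 6 libraries and at 19.5% to 36.4% for the other rules, where the bar of all genes reaches 5.31% to 17.3%.

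Without shControl replicate 2, edgeR called 1 member higher, MRPS24, and 18 members lower (23.4%) among 15130 genes tested, where 9.80% and 8.79% of all genes tested were called. The 18 were MRPL1, MRPL15, MRPL16, MRPL21, MRPL23, MRPL24, MRPL27, MRPL30, MRPL35, MRPL41, MRPL42, MRPL48, MRPL54, MRPS16, MRPS18B, MRPS26, MRPS27 and MRPS33. Their fitted changes ran from -47.4% to -20.1%, and all 18 were among the 28 members without overlap in the 6 libraries. DESeq2 with 6 libraries shared 14 of the 18, without MRPL41, MRPS16, MRPS26 and MRPS27, and its 15th was MRPL40. The number of calls depended on each remaining library. For the further fits below, the share called over all genes tested is not given, so these counts describe the members alone. Of the 5 libraries, leaving out shPUS1 replicate 1, 2 or 3 as well left 0, 2 and 9 lower members, leaving out shControl replicate 1 left 5, and leaving out shControl replicate 3 gave 28. The 2 members that remained without shPUS1 replicate 2 were MRPL30 and MRPL41. With shControl replicate 2 kept and shControl replicate 3 left out, 4 members were lower, MRPL21, MRPL30, MRPS18B and MRPS33, all of them among the 18. The other 58 members had log2 fold changes of -0.74 to 0.26 with 5 libraries.

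**Figure D3:**
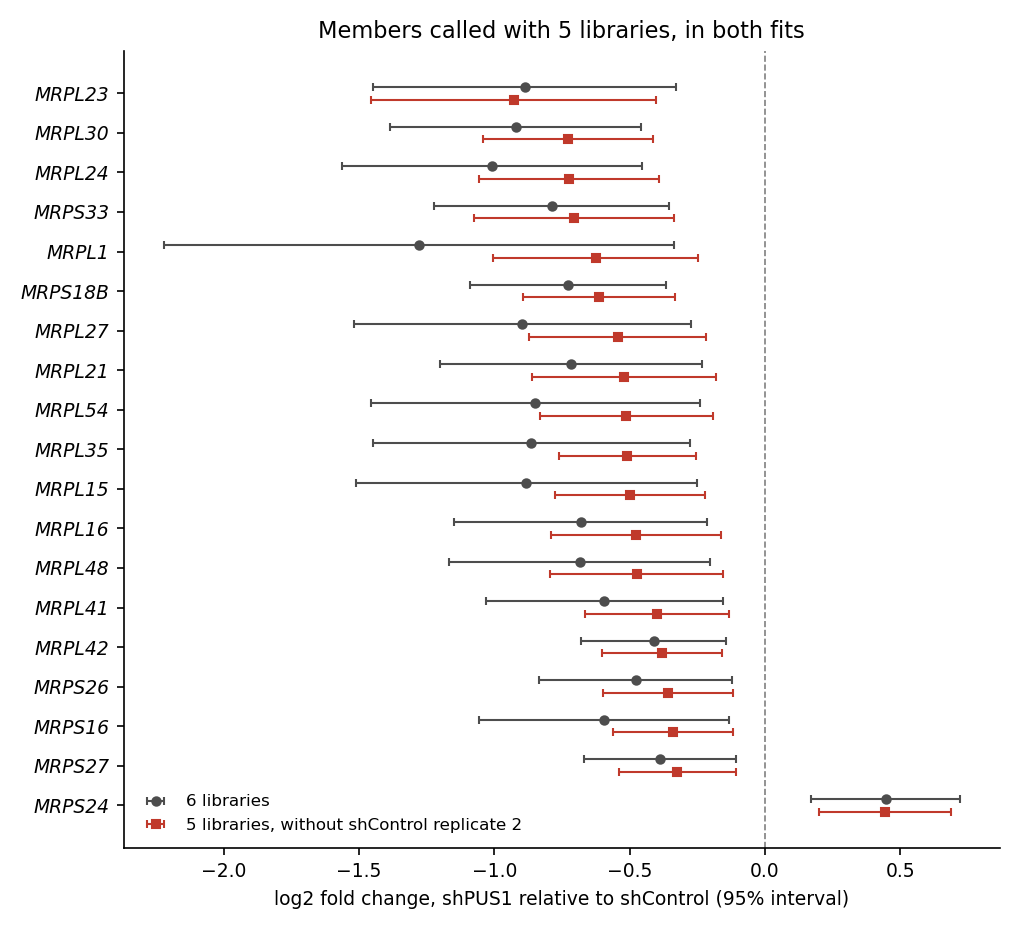
Log2 fold changes of shPUS1 relative to shControl with 95% intervals for the 19 members called with 5 libraries, fitted by edgeR to 6 libraries (grey circles) and to 5 (red squares). The intervals with 6 libraries are wider, as for MRPL1 (-2.22 to -0.34 against -1.01 to -0.25), and MRPS24 alone lies above 0.

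The large subunit holds the peptidyl transferase centre, where peptide bonds form, and the tunnel through which the new chain leaves. Of its 51 members, 13 were lower with 5 libraries (25.5%) and 0 higher, where 8.79% and 9.80% of all genes tested were, and the median log2 fold change was -0.37 with 6 libraries and -0.19 with 5. No large-subunit member was higher at an unadjusted p under 0.05 or by DESeq2 or voom in either fit. The lower counts with 6 and 5 libraries were 18 and 18 at an unadjusted p under 0.05, 13 and 9 by DESeq2, and 16 and 9 by voom. With 6 libraries, 12.8%, 5.31% and 9.48% of all genes were lower by these rules in this order, and 12.6%, 6.96% and 11.5% higher. The shares by these rules with 5 libraries are not given, so the counts there describe the members alone. Of the 30 with a bacterial counterpart, 9 were lower, and of the 21 found only in mitochondrial ribosomes, 4 were. MRPL24 (ENSG00000143314, chromosome 1, 156737303 to 156741590), whose bacterial counterpart binds early in assembly near the tunnel exit, was at 17.31, 16.09 and 21.72 FPKM in shPUS1 and at 33.58, 49.42 and 28.87 FPKM in shControl. The groups did not overlap, and the lowest shControl library was replicate 3. For MRPL24 the log2 fold change was -0.73 (SE 0.15, adjusted p = 0.0128 from edgeR) with 5 libraries and -1.01 (SE 0.24, adjusted p = 0.0623) with 6. MRPL30 (ENSG00000185414, chromosome 2, 99181152 to 99199561) was at 5.51, 4.93 and 6.23 FPKM in shPUS1 and at 10.41, 13.01 and 8.50 FPKM in shControl. The groups were separate, with shControl replicate 2 the highest. The log2 fold change of MRPL30 was -0.73 (SE 0.14, adjusted p = 0.0107) with 5 libraries and -0.92 (adjusted p = 0.0555) with 6, and 14.9% of its 100-base stretches occur in other transcripts.

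MRPL23 (ENSG00000214026, chromosome 11, 1947278 to 1984522), a protein at the exit of the tunnel, had the largest fitted fall of a called member with 5 libraries. It was at 2.40, 2.77 and 3.01 FPKM in shPUS1 and at 3.81, 4.71 and 6.89 FPKM in shControl, where replicate 3 and not replicate 2 was the highest. The log2 fold change of MRPL23 was -0.93 (SE 0.23, adjusted p = 0.0275 from edgeR) with 5 libraries and -0.89 (SE 0.24, adjusted p = 0.0841) with 6. MRPL1 (ENSG00000169288, chromosome 4, 77862830 to 77952785), whose counterpart forms the mobile stalk at the exit side for tRNAs, was at 5.32, 5.46 and 6.86 FPKM in shPUS1 and at 10.32, 24.19 and 8.32 FPKM in shControl. Its log2 fold change was -1.28 (SE 0.41, adjusted p = 0.113) with 6 libraries, the lowest value of all members, and -0.63 (SE 0.17, adjusted p = 0.0341) with 5. Without shControl replicate 3, MRPL23 had -0.65 (adjusted p = 0.106) in place of the value with 6 libraries and -0.46 (adjusted p = 0.0976) in place of that with 5.

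MRPL15 (ENSG00000137547) was at 11.72, 11.57 and 13.22 FPKM in shPUS1 and at 19.17, 32.36 and 16.20 FPKM in shControl. MRPL27 (ENSG00000108826, chromosome 17, 50367857 to 50373207), whose bacterial counterpart reaches into the peptidyl transferase centre, was at 5.58, 5.42 and 6.50 FPKM in shPUS1 and at 9.78, 15.30 and 7.70 FPKM in shControl. MRPL35 (ENSG00000132313, chromosome 2, 86199355 to 86213790) was at 8.96, 8.95 and 10.44 FPKM in shPUS1 and at 14.41, 24.32 and 13.25 FPKM in shControl. All of these had the highest value in shControl replicate 2 and no overlap between groups. With 5 libraries their log2 fold changes were -0.50, -0.54 and -0.51 in this order, with adjusted p of 0.0257, 0.0332 and 0.0173 from edgeR. With 6 libraries these were -0.88, -0.90 and -0.86, with adjusted p of 0.106, 0.1 and 0.0964. MRPL16 and MRPL21, further members with bacterial counterparts, had -0.48 and -0.52 with 5 libraries, with adjusted p of 0.0445 and 0.0436. With 6 libraries MRPL16 and MRPL21 had -0.68 and -0.72, with adjusted p of 0.0986 and 0.0961.

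The members of the large subunit found only in mitochondrial ribosomes and lower with 5 libraries were MRPL41, MRPL42, MRPL48 and MRPL54. MRPL42 (ENSG00000198015, chromosome 12, 93467514 to 93516214) was at 4.93, 5.17 and 5.41 FPKM in shPUS1 and at 7.28, 7.09 and 6.56 FPKM in shControl. Its shControl libraries lay close together, and shControl replicate 2 was between the others. The log2 fold change of MRPL42 was -0.41 (SE 0.12, adjusted p = 0.0899 from edgeR) with 6 libraries and -0.38 (SE 0.10, adjusted p = 0.0306) with 5. MRPL41, MRPL48 and MRPL54 had -0.40, -0.47 and -0.51 with 5 libraries and adjusted p of 0.0463, 0.0488 and 0.0373. With 6 libraries they had -0.59, -0.68 and -0.85 and adjusted p of 0.113, 0.103 and 0.107. MRPL40, at 3.78, 3.59 and 6.59 FPKM in shPUS1 and 8.37, 15.26 and 7.6 FPKM in shControl, had -1.16 with 6 libraries (adjusted p = 0.111) and -0.74 with 5 (adjusted p = 0.0806) and missed the adjusted p of 0.05 in both fits. MRPL40 overlaps HIRA and C22orf39 on the opposite strand, and whether counting used strand is not given in the sources used here.

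None of MRPL2, MRPL3, MRPL12, MRPL14, MRPL34, MRPL37, MRPL44, MRPL46 and MRPL58 passed the adjusted threshold of edgeR in either fit. MRPL2 and MRPL3 have bacterial counterparts close to the peptidyl transferase centre. MRPL2 was at 26.65, 23.94 and 30.23 FPKM in shPUS1 and at 33, 21.35 and 28.17 FPKM in shControl, so the groups overlapped, with a log2 fold change of 0.00 (95% interval -0.40 to 0.40) with 6 libraries and -0.14 (-0.44 to 0.16) with 5. MRPL3 had -0.41 (-0.90 to 0.08) and -0.14 (-0.39 to 0.11). MRPL14, which had the highest mean level of the members at 88.1 FPKM, had -0.07 (-0.43 to 0.29) with 6 libraries and 0.09 (-0.14 to 0.32) with 5. MRPL12, which forms the stalk that engages translation factors, had -0.53 (adjusted p = 0.240 from edgeR) and -0.16 (adjusted p = 0.337), and 64.8% of its 100-base stretches also occur in a neighbouring readthrough transcript. MRPL37 had -0.21 and -0.01, MRPL46 -0.23 and -0.07, MRPL44 0.04 and 0.00, and MRPL34 0.09 and 0.17. MRPL58, a hydrolase of peptidyl-tRNA that rescues stalled ribosomes, had -0.59 (-1.24 to 0.06) with 6 libraries and -0.20 (-0.51 to 0.11) with 5.

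**Figure D4:**
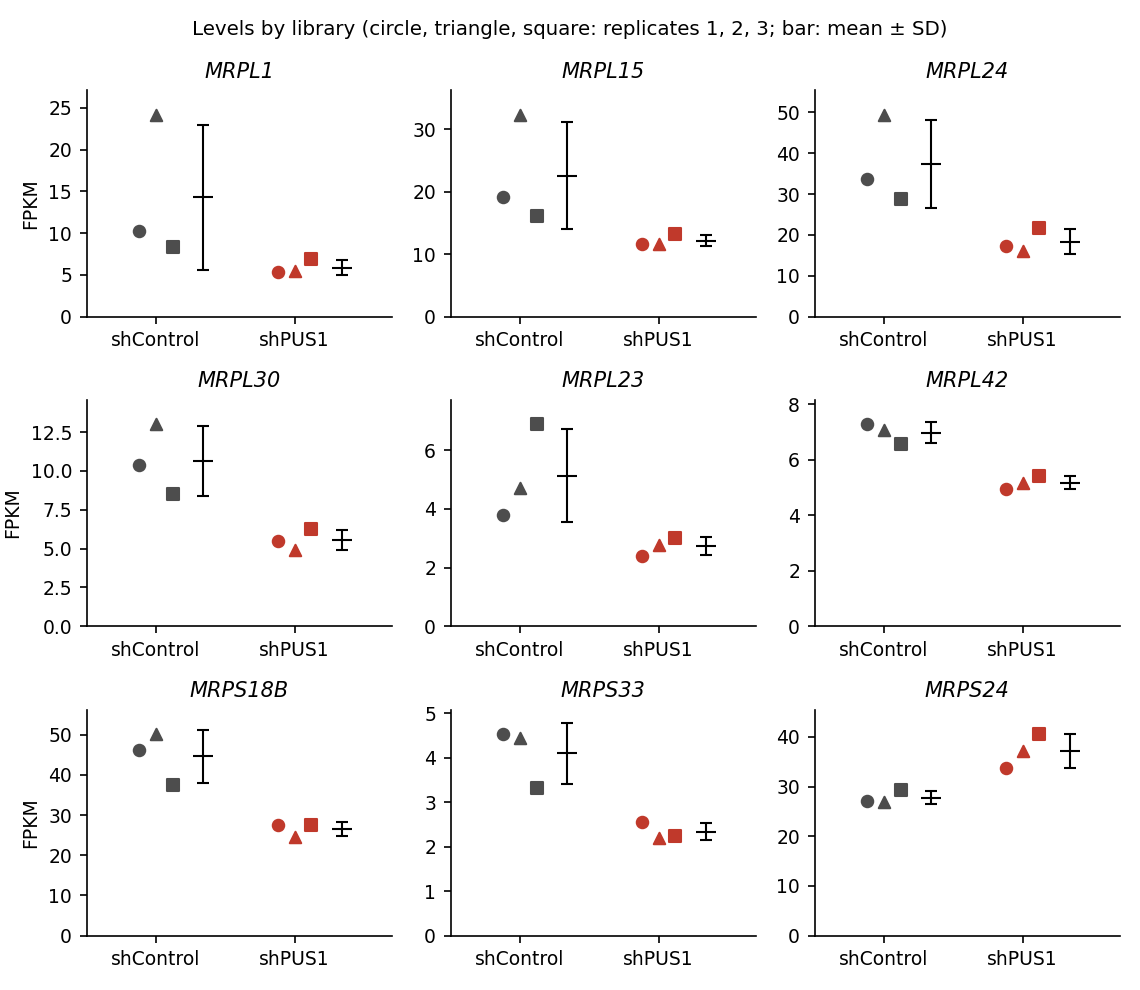
FPKM of 9 members in the shControl (grey) and shPUS1 (red) libraries, with replicates 1, 2 and 3 as circle, triangle and square and the mean ± SD (n = 3) beside them. The triangle of shControl is far above the rest for MRPL1 (24.19 FPKM) but not for MRPL42 or MRPS33, and in MRPS24 the shPUS1 libraries lie above shControl.

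The small subunit binds the mRNA and decodes it. Of its 25 members, 5 were lower with 5 libraries (20%) and 1 was higher, where 8.79% and 9.80% of all genes tested were, and the median log2 fold change was -0.39 with 6 libraries and -0.12 with 5. Of the 15 with a bacterial counterpart, 1 was lower (6.67%), MRPS16, a share near that of all genes tested, with a median of -0.05 with 5 libraries. Of the 10 found only in mitochondrial ribosomes, 4 were lower, MRPS18B, MRPS26, MRPS27 and MRPS33, with a median of -0.34. If MRPS18B is counted with the first class for its descent, the numbers are 2 of 16 and 3 of 9. With 6 libraries the lower small-subunit members were MRPS18B and MRPS33 by DESeq2, and these with MRPS22, MRPS23 and MRPS31 by voom. Over all genes, 5.31% and 9.48% were lower by these methods. The difference between the subgroups by ancestry was not tested.

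MRPS18B (ENSG00000204568, chromosome 6, 30617840 to 30626395) was at 27.50, 24.59 and 27.61 FPKM in shPUS1 and at 46.13, 50.26 and 37.45 FPKM in shControl. The shPUS1 libraries lay close together, and the lowest shControl library was well above them. The log2 fold change of MRPS18B was -0.61 (SE 0.12, adjusted p = 0.0125 from edgeR) with 5 libraries and -0.73 (SE 0.16, adjusted p = 0.0535) with 6. MRPS33 (ENSG00000090263, chromosome 7, 141002610 to 141015228), whose level was among the lowest 3 of the members, was at 2.56, 2.20 and 2.25 FPKM in shPUS1 and at 4.54, 4.44 and 3.31 FPKM in shControl. For MRPS33 the log2 fold change was -0.71 (SE 0.16, adjusted p = 0.0209) with 5 libraries and -0.79 (adjusted p = 0.0627) with 6. MRPS16, MRPS26 and MRPS27, a protein with pentatricopeptide repeats, had -0.34, -0.36 and -0.32 with 5 libraries and adjusted p of 0.0447, 0.0470 and 0.0467. With 6 libraries they had -0.59, -0.48 and -0.39 and adjusted p of 0.125, 0.116 and 0.109 from edgeR. DESeq2 and voom with 6 libraries called none of MRPS16, MRPS26 and MRPS27.

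MRPS24 (ENSG00000062582, chromosome 7, 43866558 to 43869893), which is the counterpart of the bacterial protein at the entrance of the mRNA channel, went the other way. It was at 33.78, 37.09 and 40.63 FPKM in shPUS1 and at 27, 26.92 and 29.25 FPKM in shControl. All shPUS1 libraries were above all shControl libraries, and shControl replicate 2 was close to replicate 1. The log2 fold change of MRPS24 was 0.44 (SE 0.11, adjusted p = 0.0253 from edgeR) with 5 libraries and 0.45 (SE 0.12, adjusted p = 0.0803) with 6, and it lay between 0.38 and 0.54 over all alternatives to both fits. The call of MRPS24 with 5 libraries was lost with voom (adjusted p = 0.0596) and in edgeR when a further library other than shControl replicate 3 was left out, with adjusted p of up to 0.0766. Of its 100-base stretches, 19.6% occur in the readthrough transcript URGCP-MRPS24, which held a mean of 4.4 counts against 1452 for MRPS24. MRPS5, which lines the mRNA channel with it, had 0.30 (95% interval -0.05 to 0.65) with 6 libraries and 0.26 (-0.07 to 0.60) with 5. MRPS15 had 0.10 and 0.25, MRPS2 -0.13 and -0.01, and MRPS10, at a mean of 61.6 FPKM, -0.21 and -0.06, with adjusted p of at least 0.203.

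The paralogs MRPS18A, MRPS18B and MRPS18C descend from the same bacterial protein and sit at different places of the mitochondrial ribosome, MRPS18A in the large subunit. By their places, MRPS18C is counted here as the bacterial counterpart and MRPS18A and MRPS18B as specific to mitochondria. MRPS18A was at 22.06, 19.26 and 21.54 FPKM in shPUS1 and at 22.41, 23.69 and 21.83 FPKM in shControl, with a log2 fold change of -0.04 (95% interval -0.28 to 0.20) with 5 libraries. MRPS18C was at 3.55, 3.28 and 4.19 FPKM in shPUS1 and at 5.28, 7.13 and 4.18 FPKM in shControl, with -0.33 (-0.67 to 0.02). Of the paralogs, MRPS18B alone passed the threshold with 5 libraries, and the differences between them were not tested. MRPS18C overlaps ABRAXAS1 and MRPS18B overlaps PPP1R10 on the opposite strand. MRPS30, the large-subunit protein with a small-subunit symbol, had 0.10 (-0.22 to 0.42) with 6 libraries and 0.13 (-0.17 to 0.42) with 5. MRPS36 had -0.04 (-0.35 to 0.27) and -0.03 (-0.29 to 0.22).

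**Figure D5:**
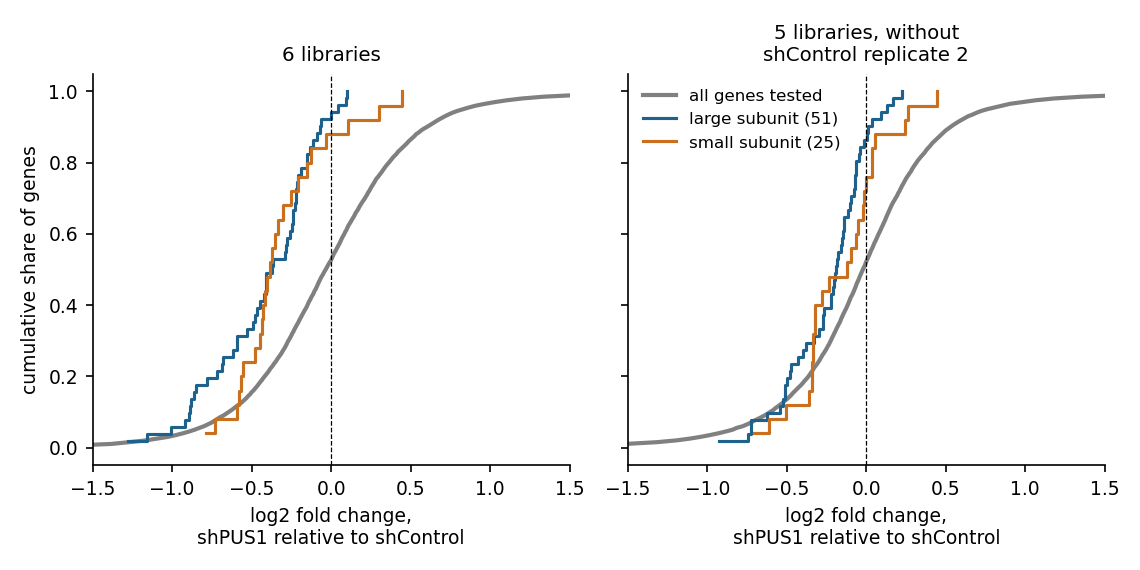
Cumulative share of genes by log2 fold change of shPUS1 relative to shControl for all genes tested (grey), 51 members of the large subunit (blue) and 25 of the small subunit (orange), with 6 libraries on the left and 5 on the right. Both subunits lie to the left of all genes near the middle of the curves, with medians of -0.37 and -0.39 on the left and -0.19 and -0.12 on the right, and neither reaches the far ends of the grey curve.

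At the median, the members were shorter and more highly expressed than all genes tested. Their median exonic length was 2539 bases and their median level 16.1 FPKM, where all genes tested had 4968.5 bases and 4.61 FPKM. When a trend of each library on exonic length was removed, the median log2 fold change of the members was -0.26 with 6 libraries and -0.09 with 5. In that fit of 5 libraries edgeR called 16 members lower and 2 higher. The median and the share called over all genes tested are not given for it, so an excess among the members cannot be judged there. In all, 18 of the members shared at least one 100-base stretch with a transcript of another gene, and 4 shared 20% or more of them, MRPL12, MRPL38, MRPL53 and MRPS28. None of these was called with 6 or with 5 libraries, and MRPL53 was lower when shControl replicate 3 was left out of the 5.

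Of the 77 members, 30 (39.0%) had the start of another tested gene within 1000 bases on the opposite strand, head to head, where 19.5% of all genes tested did. These gave 31 entries of a member with a partner, in which MRPL46 and MRPS11 are entered from both sides. In 3 entries the partner was lower with 5 libraries (9.68%) and in 1 it was higher (3.23%). Over all genes tested 8.79% were lower and 9.80% higher. MRPL27 and its partner EME1, a subunit of a DNA endonuclease, were both lower, EME1 with -1.16 on the log2 scale (adjusted p = 0.00322 from edgeR). MRPS27 and PTCD2 were both lower, PTCD2 with -0.91 (adjusted p = 0.0121). The gene bodies of MRPS27 and PTCD2 overlap by 280 bases on opposite strands, and those of MRPS18B and PPP1R10 by 773. MTBP, the partner of MRPL13, was lower with -0.40 (adjusted p = 0.0257), and MRPL13 had -0.43 (adjusted p = 0.0679). MRPS18B was lower while its partner PPP1R10, a regulatory subunit of protein phosphatase 1, was higher with 0.64 (adjusted p = 0.0101). MRPL46 and MRPS11 are partners of each other, and with 5 libraries they had -0.07 and 0.00.

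Proteins of the mitochondrial ribosome with other symbols gave no call. DAP3, AURKAIP1, CHCHD1, PTCD3 and GADD45GIP1 had log2 fold changes of -0.39 to -0.12 with 6 libraries and of -0.18 to 0.00 with 5, with adjusted p of at least 0.230 from edgeR. All 5 were negative in both fits, at no unadjusted p under 0.05, and DESeq2 and voom called 0 of them as well. Over all genes tested, edgeR called 0.841% lower and 1.74% higher with 6 libraries, and 8.79% and 9.80% with 5. DESeq2 and voom called 5.31% and 9.48% lower and 6.96% and 11.5% higher with 6 libraries. Among only 5 genes, 0 calls cannot tell this list from the members or from the table. DAP3, a GTP-binding protein of the small subunit, was at 27.57, 26.16 and 30.88 FPKM in shPUS1 and at 33.82, 36.95 and 27.24 FPKM in shControl, so the groups overlapped.

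Among 26 factors of mitochondrial ribosome assembly and rRNA modification, 0 were lower in either fit, while 1 was higher with 6 libraries and 2 with 5. Over all genes tested 1.74% and 9.80% were higher and 0.841% and 8.79% lower in these fits. At an unadjusted p under 0.05, 3 were lower and 1 higher with 6 libraries, where 12.8% and 12.6% of all genes tested were. By this rule 2 were lower and 3 higher with 5 libraries. DESeq2 called 0 lower in either fit, 1 higher with 6 libraries and 2 with 5. Voom called 1 lower, MTERF3, and 1 higher with 6 libraries, and 0 lower and 1 higher with 5. With 6 libraries DESeq2 and voom called 5.31% and 9.48% of all genes lower and 6.96% and 11.5% higher. For these rules with 5 libraries the shares are not given. MPV17L2, an inner membrane protein needed for assembly of the ribosome, was at 11.89, 11.10 and 11.81 FPKM in shPUS1 and at 7.34, 7.19 and 7.73 FPKM in shControl. The groups were far apart and shControl replicate 2 was the lowest of its group. Its log2 fold change was 0.67 (SE 0.14, adjusted p = 0.0481 from edgeR) with 6 libraries and 0.66 (SE 0.11, adjusted p = 0.00606) with 5. MTG1, an assembly GTPase, was higher with 5 libraries at 0.49 (adjusted p = 0.0219) and had -0.18 (adjusted p = 0.794) with 6, where shControl replicate 2 was at 7.17 FPKM and the other shControl libraries at 2.65 and 2.76. The median log2 fold change of the 26 was -0.15 and -0.10.

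Of 16 tested mitochondrial translation factors, 0 were called with 6 libraries, and 4 were lower (25%) and 0 higher with 5, where 8.79% and 9.80% of all genes tested were. With 6 libraries 4 were lower and 1 higher at an unadjusted p under 0.05, DESeq2 called 3 lower, and voom called 4 lower and MTRF1L higher, beside lower shares of 12.8%, 5.31% and 9.48% over all genes tested. MTRF1L, a release factor, was at an adjusted p of 0.056 in edgeR with 5 libraries, where DESeq2 called it higher. MTIF2, the initiation factor that places the first tRNA, was at 7.57, 7.58 and 8.80 FPKM in shPUS1 and at 15.39, 20.24 and 11.45 FPKM in shControl. The fitted log2 fold change of MTIF2 was -0.71 (SE 0.15, adjusted p = 0.0140 from edgeR) with 5 libraries and -0.96 (adjusted p = 0.0623) with 6. MRRF, which recycles ribosomes after termination, had -0.69 (adjusted p = 0.0117) with 5 libraries. MTRES1, a factor for stalled ribosomes, had -0.71 (adjusted p = 0.0428) there. TACO1, an activator of the synthesis of a cytochrome oxidase subunit, had -0.41 (adjusted p = 0.0421) there. With 6 libraries MRRF, MTRES1 and TACO1 had -0.81, -0.74 and -0.61, with adjusted p of 0.0562, 0.0967 and 0.109 from edgeR. Of the 4 lower factors, DESeq2 with 5 libraries called MRRF and MTIF2, and voom with 5 called MRRF, MTIF2 and MTRES1. The shares of all genes called by DESeq2 and voom with 5 libraries are not given. The median of the 16 was -0.24 and -0.18. The 13 mRNAs of the mitochondrial genome, which these ribosomes translate, had medians of -0.14 and 0.00, and 0 of them were called by edgeR in either fit. MT-ND1 came nearest with 5 libraries, at 0.34 (adjusted p = 0.0502), DESeq2 called it there, and with 6 libraries 0 had an unadjusted p under 0.05 or a call by DESeq2 or voom, and the libraries were made from poly(A)-selected RNA.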

How the data were processed

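Poly(A)-selected RNA of 6 MDA-MB-231 libraries was sequenced as paired ends. Per the labels and methods, the authors aligned reads with HISAT2 and counted them with HTSeq 0.6.1. The genome build, the strandedness and the handling of reads with several matches are not given in the sources used here. Each gene has deposited estimated counts without normalization, and FPKM values that the authors made from them. Of the counts above 0, 29.8% to 31.8% in each library were not whole numbers. No library was pooled.

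Rounded counts passed filterByExpr and TMM scaling, and the whole table was fitted by quasi-likelihood in edgeR 4.0.16 (R 4.3.3), with Benjamini-Hochberg adjustment over all genes tested and a call at an adjusted p under 0.05. A prior count of 2 was used for log2 CPM. Fits were made with 6 libraries and, with all steps redone, with 5. The biological coefficient of variation was 0.22 and 0.113. Alternatives were DESeq2 1.42.0 and, with limma 3.58.1, voom with sample weights and log2(FPKM + 1) or log2(FPKM + 0.1) for genes of mean FPKM 1 or more. Other alternatives were RLE size factors, library totals without TMM, no filter, removal of a trend on exonic length, a replicate block, an adjusted p under 0.1 and each library left out. Leaving a further library out of the 5 was an addition made with the data seen. The scripts were tested on simulated data. Python 3.11.15 with numpy 2.4.6, pandas 2.3.3, scipy 1.17.1 and matplotlib 3.10.9 was used for the rest.

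Coordinates of genes were copied from the deposited table. All 77 member identifiers are in GENCODE release 29 (GRCh38), whose transcripts served for the search of shared stretches of 100 bases. Promoter windows are from RefSeq (GRCh38.p14). The members and lists were chosen with earlier results of these data known. The subunit and ancestry of members and the lists of companion genes came from general knowledge. By rule, members were named for the smallest adjusted p (at most 8 in each direction), the largest fitted values, the 4 highest and 3 lowest levels, the 4 largest differences of shControl replicate 2, and their place in the ribosome, and the remaining called members were named after their values were seen.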

Additional observations from a re-analysis of the deposited data

How the results depend on the processing

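With 6 libraries, 0 higher and 0 lower members were called by edgeR with RLE size factors, with the length trend removed and with a replicate block. DESeq2 called 1 higher and 15 lower, voom with sample weights 1 and 21, and an adjusted p under 0.1 gave 1 and 9. The lower calls were 1 without TMM, 1 with log2(FPKM + 0.1), 2 with log2(FPKM + 1) and 12 with no filter on low counts. Leaving out each library gave 0 to 1 higher and 0 to 18 lower calls, and medians of -0.50 to -0.18. The median was -0.24 with voom and stayed negative under all settings tried. With 5 libraries, voom called 0 higher and 11 lower, the length trend removed gave 2 higher and a median of -0.087, and leaving out a further library gave 0 to 2 higher, 0 to 28 lower and medians of -0.264 to -0.065. Where 1 shControl library remained, it was assumed to vary like the others. For most of these settings the share called over all genes tested is not given, so these counts describe the members alone. The cause of these differences was not tested.

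The labels do not say whether libraries with the same replicate number were pairs. Correlations of their residuals were -0.05, -0.03 and -0.19 for replicates 1, 2 and 3. With 3 libraries per group and shControl replicate 2 apart from its group, these values cannot decide it. The replicate block gave 0 higher and 0 lower members and a median of -0.35. PUS1 had -1.55 (adjusted p = 0.0969) with the replicate block, -1.48 with log2(FPKM + 0.1) and -1.001 with log2(FPKM + 1), all past no threshold, and -1.86 to -1.20 with libraries left out, with adjusted p of 0.00311 to 0.253.

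Of 480 values of named members under alternatives, 410 kept direction and side of the threshold, 52 gained a call and 18 changed sign. No member was called with 6 libraries, so none could lose a call. MRPL2, at 0.00 with 6 libraries, was 0.002 with DESeq2 and with RLE, 0.10 without the length trend, 0.001 with no filter, 0.009 with the block and -0.14 to 0.14 with libraries left out. Without the length trend MRPL14, MRPS18A and MRPS36 were 0.050, 0.030 and 0.083, and with voom MRPL14 and MRPL44 were 0.029 and -0.032. With libraries left out, MRPL14 ran from -0.182 to 0.091, MRPS11 from -0.67 to 0.001, MRPL44 from -0.035 to 0.140, MRPS15 from -0.008 to 0.245 and MRPS30 from -0.027 to 0.159. No library was tested as an outlier.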
